A study of Mus musculus with 16 samples.

Results

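The comparison described here is what changed when Nfib was added to cells that already expressed Mycl1 from a vector. It uses 8 of the 16 arrays of the series, namely the 4 labelled Nfib+Mycl1 and the 4 labelled Mycl1, chosen by their labels alone. The cells were 3583T3 and 3151T4, a pair of mouse lines each grown out of 1 dissociated small cell lung tumour in medium with serum, and each line had 2 arrays per vector group. Cells of the Nfib+Mycl1 groups carried MSCV-Nfib-PGK-Neo, which encodes FLAG-tagged mouse Nfib and neomycin resistance (selection with G418), and MSCV-L-myc-PGK-Puro, which encodes L-Myc and puromycin resistance (selection with puromycin). Cells of the Mycl1 groups carried the second vector alone. By their labels all 8 arrays therefore come from cells with the Mycl1 vector, which the signal of 1 array goes against (given below). The Nfib cDNA cannot be told apart from the vector, resistance gene and drug that came with it. The labels give neither the genotype nor the age of the mice, and they do not say whether both arrays of a group came from different dishes. The spread behind each p-value is therefore that between these arrays, and it may be technical.

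Small cell lung cancers have neuroendocrine features and often amplify a gene of the MYC family. Nfib belongs to the nuclear factor I family, whose members bind DNA as dimers at palindromes with the arm TTGGC and act in the maturation of the lung and the brain. Mycl1 (L-Myc, current symbol Mycl) is a MYC family transcription factor that pairs with Max and binds E-boxes. The series treats Nfib as a candidate oncogene of this tumour, and the comparison gives the expression differences that go with Nfib when Mycl1 is already present.

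The arrays were first set against their labels. On the brightest Mycl probe set, Nfib+Mycl1 arrays had log2 signals of 11.05 and 2.67 in 3583T3 (replicates 1 and 2) and 10.34 and 9.99 in 3151T4 (replicates 3 and 4). Mycl1 arrays had 10.82 and 10.09 in 3583T3 and 9.08 and 10.24 in 3151T4, and the untransfected cells of the series averaged 2.34. The array labelled 3583T3 Nfib+Mycl1 replicate 2 thus had Mycl at the untransfected level, against its label. Outside the comparison, the array labelled 3583T3 Nfib replicate 2 had 10.22 on this probe set, also against its label. Whether these 2 arrays were exchanged was not tested. If they were, 1 of the 4 Nfib+Mycl1 arrays would be of cells with the Nfib vector alone, and the differences over 8 arrays would in part be between cells without and with the Mycl1 vector. Counts of calls and the largest changes over both lines are therefore also given without the array of the comparison. The same holds for most named calls over both lines that end or appear without it. With it, Mycl differed by -1.54 ± 1.51 (log2 difference ± SE, Nfib+Mycl1 minus Mycl1, limma over all probe sets, adjusted p = 0.617), and without it by 0.54 (adjusted p = 0.403). The direction on this probe set turns on that 1 array.

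The Nfib transgene could not be checked. The 4 Nfib probe sets differed by -0.20 to -0.37 and none passed the test. The brightest had 10.12, 10.34, 10.11 and 10.12 on Nfib+Mycl1 arrays and 10.44, 10.42, 10.58 and 10.31 on Mycl1 arrays. Whether any of them lies within the cDNA of the vector was not tested. A second Mycl probe set had 5.60, 7.30, 3.79 and 3.92 on Nfib+Mycl1 arrays, against 5.69, 4.97, 5.81 and 6.02 on Mycl1 arrays. It was lower in both 3151T4 replicates and, in 3583T3, high on the array whose brightest probe set was low (change -0.47, adjusted p = 0.715). Of the other MYC family genes, Mycn had, on its brightest probe set, 13.11, 13.04, 13.26 and 13.07 on Nfib+Mycl1 arrays and 13.25, 12.63, 12.19 and 12.86 on Mycl1 arrays. This probe set averaged 2.38 in untransfected cells, had 12.49 to 12.72 in cells with the Nfib vector alone, and did not pass the test (0.39 ± 0.19). The other Mycn probe sets were dim and showed no such rise. They averaged 3.75 and 3.17 on Nfib+Mycl1 arrays, 3.61 and 3.03 on Mycl1 arrays, and 4.32 and 3.10 in untransfected cells. Why the Mycn probe sets disagree was not tested. Myc had 10.73, 11.37, 10.02 and 8.63 on Nfib+Mycl1 arrays and 10.35, 9.89, 8.53 and 8.22 on Mycl1 arrays, a difference of 0.94 ± 0.27 that missed the threshold in the test over genes (adjusted p = 0.0767). None of the 11 tested members of the MYC and MAX network was called.

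**Figure D1:**
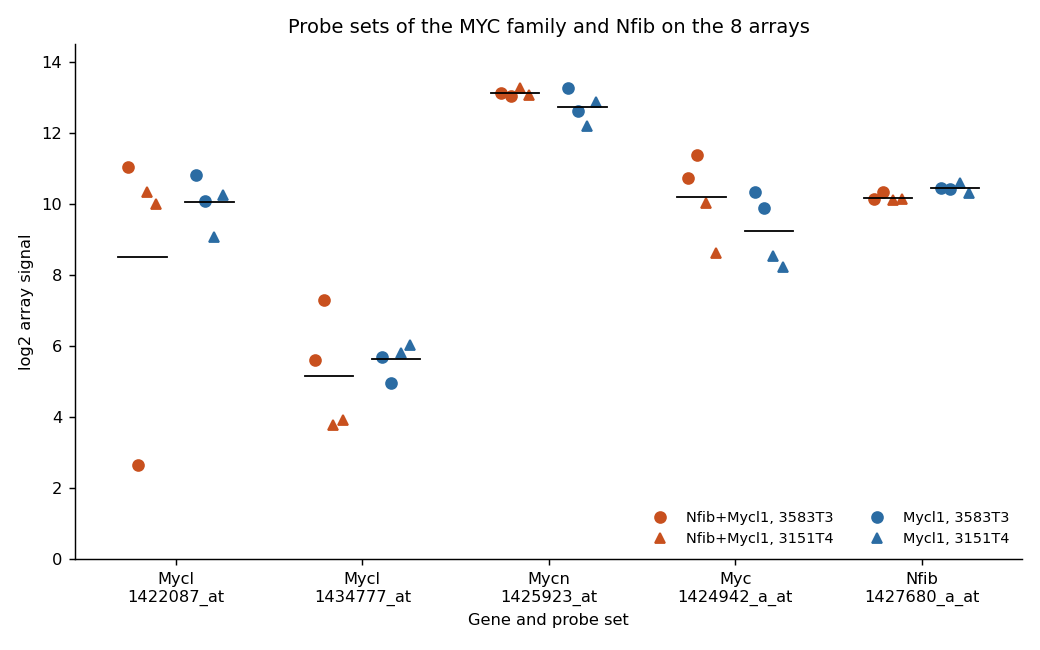
Log2 array signal of 2 Mycl probe sets, 1 Mycn, 1 Myc and 1 Nfib probe set on the 4 Nfib+Mycl1 arrays (orange, left) and the 4 Mycl1 arrays (blue, right); circles are 3583T3, triangles 3151T4, and the bar is the mean of 4 arrays. On the first Mycl probe set 1 Nfib+Mycl1 array of 3583T3 lies at 2.67, far below the other 7 arrays.

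The labelled tumour type was only in part visible in the marker genes. Ncam1, an adhesion molecule of neuroendocrine cells, had 11.53 to 12.08 on Nfib+Mycl1 arrays and 11.52 to 12.22 on Mycl1 arrays, but the granule protein gene Chga (2.18 to 2.48 and 2.38 to 2.61) and the synaptic gene Syp (2.74 to 3.02 and 2.54 to 3.06) were near the lowest signals of the arrays, and 13 of the 32 neuroendocrine markers on the array passed the filter on dim probe sets. Fibroblast genes such as Col1a1 were bright on all 8 arrays (12.17 to 12.73 on Nfib+Mycl1 and 11.67 to 12.39 on Mycl1 arrays). The summed linear signal of the 20 fibroblast markers was 40530 to 48060 on Nfib+Mycl1 arrays and 23810 to 35240 on Mycl1 arrays. That of the 24 leukocyte markers was 187.5 to 286.4 on Nfib+Mycl1 arrays and 196.5 to 529.7 on Mycl1 arrays, against 7629 to 24150 in untransfected cells, with Ptprc, the pan-leukocyte antigen gene, at 1.77 to 2.18 and 1.99 to 2.30. Of 13 endothelial markers 4 passed the filter. The defining gene Pecam1 was near the lowest signals (2.40 to 2.93 on Nfib+Mycl1 and 2.33 to 2.52 on Mycl1 arrays), but the junction gene Esam was bright in 3583T3, with 5.54 and 9.17 on 3583T3 Nfib+Mycl1 arrays and 10.41 and 10.43 on 3583T3 Mycl1 arrays. The summed endothelial signal was 243.5 and 701.3 on 3583T3 Nfib+Mycl1 arrays and 1545 and 1616 on 3583T3 Mycl1 arrays. This sum includes Esam and so is no separate measure of endothelial cells. Cdh5 (2.42 to 2.59 on Nfib+Mycl1 and 2.31 to 2.56 on Mycl1 arrays) and Vwf (2.02 to 2.21 and 2.11 to 2.25) were near the lowest signals. In such bulk samples fewer cells of a type and less RNA per cell cannot be told apart. Each of the 8 arrays was most similar to an array of its own line, and 7 of the 8 to the replicate of their own group, the exception being 3151T4 Nfib+Mycl1 replicate 4, which was closest to 3151T4 Mycl1 replicate 4.

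Over both lines, 318 of 8498 tested genes (3.74%) differed between Nfib+Mycl1 and Mycl1 at an adjusted p under 0.05 (limma with cell line as covariate, Benjamini-Hochberg over all genes tested). Of these, 182 (2.14%) were higher and 136 (1.6%) lower with Nfib, and all 318 had the same sign in both lines. The fit counts a difference between lines as spread, so a gene with opposite signs could hardly be called. The shared sign is therefore no separate evidence that the lines agree. A change of at least 2-fold was seen for 121 of the higher and 68 of the lower genes, and one of at least 4-fold for 36 and 14. The 4 Nfib+Mycl1 arrays lay wholly above or below the 4 Mycl1 arrays for 525 of the 8498 genes (6.18%), and 152 of the 318 called genes were among them. Without 3583T3 Nfib+Mycl1 replicate 2, 360 of 8449 genes (4.26%) were called, 180 higher (2.13%) and 180 lower (2.13%), and 236 of the 318 were called again. The count moved by more than 1.5 times without other single arrays too: it was 487 without 3583T3 Mycl1 replicate 1, 166 without 3583T3 Mycl1 replicate 2, 165 without 3151T4 Mycl1 replicate 3, 162 without 3151T4 Nfib+Mycl1 replicate 3 and 198 without 3151T4 Nfib+Mycl1 replicate 4.

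Sod3, the extracellular superoxide dismutase, had the largest rise, with log2 signals of 7.99, 8.34, 6.62 and 6.73 on Nfib+Mycl1 arrays (3583T3 replicates 1 and 2, then 3151T4 replicates 3 and 4, as in all lists below), against 3.70, 3.26, 3.28 and 3.21 on Mycl1 arrays. It rose by 4.06 ± 0.27, a 16.7-fold change (limma, adjusted p = 2.49e-05). Col6a2, a chain of type VI collagen, had 9.46, 9.55, 11.18 and 11.05 on Nfib+Mycl1 arrays and 6.13, 5.52, 6.74 and 7.26 on Mycl1 arrays, a rise of 3.90 ± 0.19 (14.9-fold, adjusted p = 2.65e-06). Its partner chain gene Col6a1 rose as well, from a higher level (10.79, 10.83, 11.95 and 12.01 on Nfib+Mycl1 arrays and 9.20, 8.77, 9.59 and 10.01 on Mycl1 arrays), by 2.0 ± 0.15. In both genes every Nfib+Mycl1 array lay above every Mycl1 array. Flt1, which encodes the VEGF receptor 1, had 8.74, 8.76, 10.02 and 10.08 on Nfib+Mycl1 arrays and 5.78, 5.68, 6.65 and 6.41 on Mycl1 arrays, and rose by 3.27 ± 0.17 (9.64-fold). For none of these 4 genes did the difference between lines pass the test.

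Crabp1, which encodes a cellular retinoic acid binding protein, had 9.04, 7.43, 7.22 and 7.09 on Nfib+Mycl1 arrays, against 3.62, 3.40, 4.25 and 4.41 on Mycl1 arrays (3.78 ± 0.41, adjusted p = 0.000506). Eln, the gene of elastin, had 7.30, 5.87, 5.22 and 5.09 on Nfib+Mycl1 arrays and 2.82, 2.87, 2.93 and 2.77 on Mycl1 arrays, where it was near the lowest signals, and rose by 3.02 ± 0.35. Svep1, a large cell adhesion and matrix protein, had 8.25, 7.13, 7.32 and 7.36 on Nfib+Mycl1 arrays and 5.43, 5.21, 3.61 and 3.79 on Mycl1 arrays (3.01 ± 0.30). Prrx1 encodes a homeobox transcription factor of mesenchyme. Prrx1 had 11.13, 10.62, 11.07 and 11.09 on Nfib+Mycl1 arrays and 9.37, 9.14, 6.84 and 6.76 on Mycl1 arrays, so that its rise of 2.95 ± 0.43 was 4.28 in 3151T4 and 1.62 in 3583T3, and the lines differed (adjusted p = 0.00129).

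Slpi, a secreted inhibitor of serine proteases in airway fluid, had 5.34, 6.24, 8.67 and 8.60 on Nfib+Mycl1 arrays and 3.93, 4.0, 3.13 and 3.14 on Mycl1 arrays. It rose by 3.66 ± 0.59, with 5.49 in 3151T4 and 1.83 in 3583T3. The interferon-induced gene Trim30a leaned the other way, with 9.95, 8.74, 5.66 and 5.50 on Nfib+Mycl1 arrays and 3.45, 3.29, 3.75 and 3.99 on Mycl1 arrays (3.85 ± 0.69). Lhx8, a LIM homeobox transcription factor gene, had 2.83, 2.59, 7.87 and 7.75 on Nfib+Mycl1 arrays and 2.01, 1.89, 2.15 and 2.05 on Mycl1 arrays. The rise of Lhx8 (3.24 ± 0.77) was nearly all in 3151T4, and its call was lost without 3151T4 Mycl1 replicate 3 (adjusted p = 0.118) or without 3151T4 Mycl1 replicate 4 (adjusted p = 0.0792). Over all alternatives tried, Lhx8 kept its call in 11 of 21 and Trim30a in 19 of 23. Robust variance estimates and the replicate block ended both calls, and omitting the filter on dim probe sets or the mean-variance trend, or fitting all 16 arrays, ended that of Lhx8. Prelp and Dcn, which complete the 12 largest rises, are described with the matrix genes. All 12 had non-overlapping groups, with adjusted p up to 0.0426, and all 12 were called without 3583T3 Nfib+Mycl1 replicate 2. Without that array the rise was 3.86 for Sod3, 3.92 for Col6a2, 3.66 for Trim30a, 3.91 for Crabp1, 3.85 for Slpi, 3.16 for Prelp and Eln, 3.31 for Flt1, 2.87 for Dcn, 3.78 for Lhx8, 3.36 for Svep1 and 3.32 for Prrx1.

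Bex1, a small X-linked gene of neurons, had the largest fall, with 8.29, 7.12, 5.68 and 6.39 on Nfib+Mycl1 arrays and 11.31, 12.01, 9.19 and 8.48 on Mycl1 arrays. It fell by 3.38 on the log2 scale (10.4-fold lower, SE 0.33, adjusted p = 0.0003). Ptprz1, a receptor tyrosine phosphatase of glia and neural progenitors, had 8.66, 9.45, 2.89 and 2.97 on Nfib+Mycl1 arrays and 10.92, 11.27, 6.28 and 6.22 on Mycl1 arrays, and fell by 2.68. The groups of Ptprz1 overlap across lines but not within either line. Ctnnd2, the neural delta-catenin, had 7.0, 8.72, 5.03 and 3.48 on Nfib+Mycl1 arrays and 9.51, 9.97, 6.72 and 6.94 on Mycl1 arrays and fell by 2.23. Car8, a carbonic anhydrase-related protein of neurons, had 4.01, 6.44, 5.35 and 5.53 on Nfib+Mycl1 arrays and 7.90, 8.54, 8.0 and 7.44 on Mycl1 arrays and fell by 2.64, with no overlap.

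Of the 12 largest falls, 2 were of BH3-only genes, whose products promote apoptosis. Pmaip1 (Noxa) had 10.52, 10.43, 7.72 and 7.89 on Nfib+Mycl1 arrays and 12.05, 12.59, 10.53 and 9.85 on Mycl1 arrays, and fell by 2.12 on the log2 scale (adjusted p = 0.000139). Bik had 4.32, 6.06, 2.25 and 2.82 on Nfib+Mycl1 arrays and 7.83, 7.03, 4.98 and 5.02 on Mycl1 arrays and fell by 2.35. The groups of both genes overlap across lines but not within either line. Mmp13, which encodes collagenase 3, had 2.68, 2.95, 2.35 and 2.38 on Nfib+Mycl1 arrays and 4.75, 4.82, 4.68 and 4.70 on Mycl1 arrays and fell by 2.15, to near the lowest signals of the arrays. The other 5 of the 12 largest falls were those of the peptidylarginine deiminase Padi2 (-2.37), the T cell receptor segment Trav9d-3 (-2.35), the cytohesin-interacting protein Cytip (-2.33), the lectin-like Chodl (-2.28) and the actin-binding Aif1l (-2.17). Of the 12, 7 had non-overlapping groups, and the adjusted p reached 0.011. All 12 were called without 3583T3 Nfib+Mycl1 replicate 2. The changes without that array were -3.03 for Bex1, -3.05 for Car8, -2.97 for Ptprz1, -2.72 for Bik and -2.64 for Ctnnd2. They were -2.43 for Padi2, -2.30 for Cytip, -2.27 for Trav9d-3, -2.24 for Mmp13, -2.15 for Pmaip1, and -2.08 for Chodl and Aif1l.

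**Figure D2:**
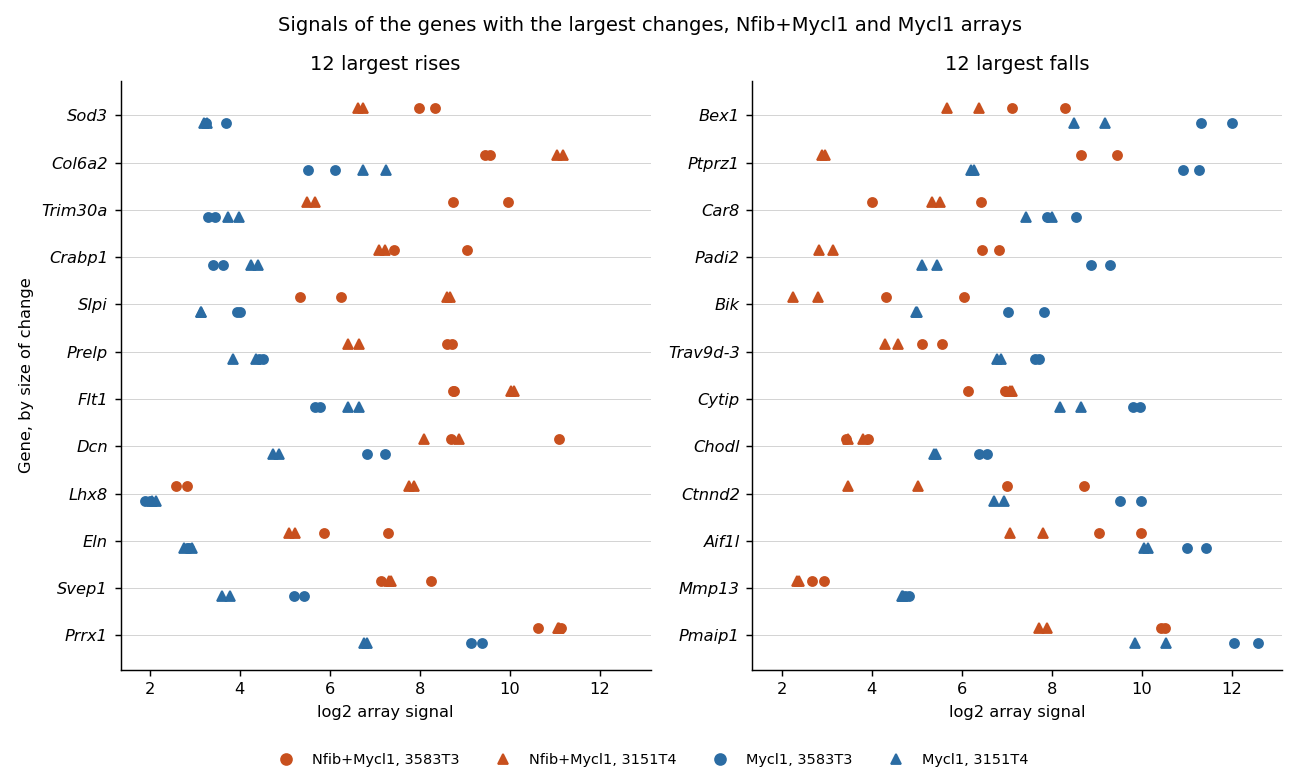
Log2 array signal (x axis) of the 12 top rising and 12 top falling genes (rows), with Nfib+Mycl1 arrays in orange and above, Mycl1 arrays in blue and below; circles are 3583T3, triangles 3151T4. All 12 rising genes and 7 of the 12 falling genes show no overlap between the colours.

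Of the 32 tested members of a list of elastic fibre and matricellular genes, 9 were higher and 0 lower (between 6 and 11 when 1 array was left out, with 6 without 3583T3 Mycl1 replicate 2 and 11 without 3583T3 Nfib+Mycl1 replicate 2). The median change was 0.598 and 28 of the 32 changes were positive, against a median of -0.017 for all genes tested. Over all genes tested 2.14% were called higher and 1.6% lower, which is the share to set beside the count of this and every list below. A list with only 1 or 2 calls is not read as a result about that list. Some members, such as Eln here and Slpi in the lung list, would not have passed the filter without Nfib+Mycl1 arrays. This favours rises in the counts. The 6 small leucine-rich proteoglycans, which bind collagen and regulate fibril assembly, had a median of 2.07, and 3 of them were called. Prelp had 8.72, 8.59, 6.41 and 6.65 on Nfib+Mycl1 arrays and 4.52, 4.44, 3.85 and 4.35 on Mycl1 arrays (3.31 ± 0.32, adjusted p = 0.000269). Dcn (decorin) had 8.70, 11.10, 8.87 and 8.08 on Nfib+Mycl1 arrays and 6.83, 7.23, 4.88 and 4.75 on Mycl1 arrays (3.27 ± 0.43), and the highest value was that of the array whose Mycl signal went against its label. Without that array Dcn rose by 2.87.

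Other matrix genes of the list, such as Fmod and Postn, lost their call without that array. The count of the list still went from 9 to 11 higher, so further members gained a call without that array. The groups of the collagen-binding proteoglycan Fmod differed by 2.09 with it (adjusted p = 0.0339) and by 1.79 without it (adjusted p = 0.0571), and those of the matricellular Postn (periostin) by 2.73 with it (adjusted p = 0.0403) and by 2.44 without it (adjusted p = 0.0697). Both differences lay almost wholly in 3583T3 (Fmod 3.50 and Postn 4.78, against 0.67 and 0.68 in 3151T4), and both calls were also lost without 3583T3 Mycl1 replicate 2 (adjusted p = 0.0843 and 0.114). Leaving out 1 array ended the call in 5 of 8 cases for Fmod and 4 of 8 for Postn. Ccn5, a CCN family protein, had 11.04, 10.01, 7.08 and 7.0 on Nfib+Mycl1 arrays and 8.83, 8.59, 3.61 and 3.67 on Mycl1 arrays, and rose by 2.61 ± 0.32. Its call held whichever array was left out. The remaining 3 calls were Ltbp2 (1.85), a binding protein of microfibrils, and the lysyl oxidase-like genes Loxl3 (1.38) and Loxl1 (0.82), whose products cross-link elastin and collagen. Loxl1 was lost without any of 4 arrays (adjusted p up to 0.0669, without 3583T3 Mycl1 replicate 2). Fmod, Postn, Ltbp2, Loxl1 and Loxl3 were named after their values were seen.

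Of 22 members of the fibrillar and type VI collagen list, 3 were higher and 0 lower, with a median of 0.289, and without 3583T3 Nfib+Mycl1 replicate 2 there were 4 higher and 1 lower. Col6a2 and Col6a1 are described above, while the third chain gene of type VI collagen, Col6a3, differed by 0.18 over both lines (1.11 in 3583T3 and -0.74 in 3151T4) and was not called. Col5a2, a fibrillar chain, had 12.11, 11.74, 12.57 and 12.10 on Nfib+Mycl1 arrays and 11.46, 10.65, 11.47 and 11.78 on Mycl1 arrays (0.79 ± 0.18). The Col5a2 call was lost without any of 4 arrays, with adjusted p up to 0.128 without 3151T4 Nfib+Mycl1 replicate 3. The main fibrillar chain gene Col1a1 differed by 0.33 ± 0.16 and was not called.

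In the list of basement membrane and integrin genes 2 of 22 were higher and 0 lower, and the median was -0.093. Lama4, the laminin alpha-4 chain of vessel walls and other basement membranes, had 8.54, 8.61, 7.79 and 7.91 on Nfib+Mycl1 arrays and 5.55, 5.17, 5.79 and 6.27 on Mycl1 arrays, a rise of 2.52 ± 0.28 with no overlap. Col4a6, a type IV collagen chain gene, had 6.67, 6.66, 7.86 and 8.23 on Nfib+Mycl1 arrays and 5.75, 5.35, 6.68 and 7.36 on Mycl1 arrays (1.07 ± 0.20), and its call was lost without any of 3 arrays (adjusted p up to 0.0618, without 3583T3 Mycl1 replicate 2). Among the 16 matrix proteases and inhibitors, 2 were higher and 2 lower (median -0.233). The counts were 2 higher and 4 lower when 3583T3 Nfib+Mycl1 replicate 2 was left out, with the stromal metalloproteinase gene Mmp11 (-0.80) and the urokinase receptor gene Plaur (-0.63) added. The inhibitor gene Timp1 had 12.07, 12.18, 11.90 and 11.95 on Nfib+Mycl1 arrays and 11.41, 11.29, 11.21 and 11.12 on Mycl1 arrays (0.77 ± 0.10), and Plat, the tissue plasminogen activator gene, rose by 1.14 ± 0.16. The 2 that fell were the metalloproteinase genes Mmp13 and Mmp10. Mmp10 had 5.86, 4.85, 3.57 and 2.84 on Nfib+Mycl1 arrays and 6.34, 6.04, 6.21 and 6.48 on Mycl1 arrays, and its call was lost without any 1 of the 4 arrays of 3151T4 (adjusted p up to 0.0971, without 3151T4 Mycl1 replicate 3).

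Of 19 tested fibroblast markers, 6 were higher and 0 lower, against 2.14% and 1.6% of all genes tested, with a median of 0.466. No overlap between groups was seen for 5 of the 19, against 525 of all 8498 genes (6.18%). The called markers were Pdgfra, Col6a1, Col6a2, Dcn, Postn and Loxl1, and the last 3 of these are also members of the elastic fibre and matricellular list. Pdgfra, a growth factor receptor of mesenchymal cells, had 9.86, 9.81, 9.44 and 9.66 on Nfib+Mycl1 arrays and 7.45, 7.59, 7.82 and 7.53 on Mycl1 arrays (2.10 ± 0.16, adjusted p = 5.7e-05). The summed signal of the 20 markers, given above, moved with the matrix genes, and its part in their change was not tested. Tcf21, a fibroblast transcription factor gene of the list, differed by -0.12 and Col1a2 by 0.26, and neither was called.

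Of 38 growth factor and receptor genes, 8 were higher and 2 lower (7 and 3 without 3583T3 Nfib+Mycl1 replicate 2), and the median was 0.063. Vegfd, a ligand of the lymphatic VEGF receptor, had 9.42, 9.33, 6.11 and 6.31 on Nfib+Mycl1 arrays and 7.27, 7.26, 4.29 and 3.89 on Mycl1 arrays. Its rise of 2.11 ± 0.17 was the same size in both lines (2.11 in 3583T3 and 2.12 in 3151T4). Fgf7, the keratinocyte growth factor gene, had 7.12, 6.06, 4.99 and 5.53 on Nfib+Mycl1 arrays and 4.76, 4.73, 3.20 and 2.84 on Mycl1 arrays and rose by 2.04 ± 0.26. Flt1 and Pdgfra are given above. The other 4 rises, named after their values were seen, were those of the lymphatic growth factor gene Vegfc (1.5), the EGF receptor gene Egfr (0.98), its ligand gene Ereg (0.90) and the insulin-like growth factor gene Igf1 (1.23). Ereg was lost without 3151T4 Nfib+Mycl1 replicate 3 (adjusted p = 0.0671), and Igf1 without any of 6 arrays (adjusted p up to 0.112, without 3583T3 Mycl1 replicate 2). The 2 falls were those of Igfbp5, an insulin-like growth factor binding protein, and Fgf13, an intracellular FGF homologue of neurons. Igfbp5 had 2.77, 2.91, 9.94 and 10.15 on Nfib+Mycl1 arrays and 3.64, 3.95, 11.61 and 11.75 on Mycl1 arrays, so that it was bright only in 3151T4, and it fell by 1.29 (SE 0.19). Fgf13 had 9.50, 9.98, 6.09 and 5.91 on Nfib+Mycl1 arrays and 10.72, 10.36, 7.93 and 8.25 on Mycl1 arrays and fell by 1.45.

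Of 19 members of the epithelial junction and keratin list, 0 were higher and 4 lower, and the median was -0.651, the lowest of the 33 lists. Dsp, the desmosome plaque protein desmoplakin, had 9.14, 9.44, 6.25 and 6.24 on Nfib+Mycl1 arrays and 10.37, 10.22, 8.42 and 8.57 on Mycl1 arrays. It fell by 1.63 (SE 0.24, adjusted p = 0.00328) and its call held whichever array was left out. The other 3 were close to the threshold. Cdh1 (E-cadherin) had 11.46, 11.88, 7.29 and 7.66 on Nfib+Mycl1 arrays and 12.30, 12.41, 8.27 and 7.92 on Mycl1 arrays, a fall of 0.65 (adjusted p = 0.0426) that was lost without any of 6 arrays, up to an adjusted p of 0.128 without 3151T4 Nfib+Mycl1 replicate 3. Pkp2 (plakophilin 2, -0.71) was lost without any of 7 arrays and Cldn4 (claudin 4, -1.06) without any of 4, among them 3583T3 Nfib+Mycl1 replicate 2 (adjusted p = 0.0664 and 0.0658). Without that array the keratin gene Krt8 (-1.04, adjusted p = 0.039) and the plakoglobin gene Jup (-1.31, adjusted p = 0.0107) were called, while with all 8 arrays they differed by -0.90 and -0.99 and were not called. Krt8 and Jup were named after their values were seen. Only 1 of the 19 members was called lower without 3583T3 Nfib+Mycl1 replicate 1.

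Among 23 genes linked to mesenchymal transition, 3 transcription factor genes were higher and 1 adhesion gene was lower. Twist1, a basic helix-loop-helix factor, had 10.46, 10.74, 11.12 and 10.90 on Nfib+Mycl1 arrays and 9.91, 9.78, 10.03 and 9.96 on Mycl1 arrays (0.88 ± 0.13, adjusted p = 0.00337). Sox9 had 9.70, 9.87, 9.64 and 9.84 on Nfib+Mycl1 arrays and 9.27, 9.07, 8.65 and 8.75 on Mycl1 arrays (0.83 ± 0.15), and Prrx1 was the third. The gene that fell was Cdh2 (N-cadherin, -0.59, adjusted p = 0.0457), a mesenchymal and neural cadherin, and its call was lost without any of 6 arrays (adjusted p up to 0.144, without 3151T4 Nfib+Mycl1 replicate 3). Of 14 smooth muscle contractile genes, 1 was lower, Actg2 (enteric smooth muscle actin), with 8.92, 8.11, 5.36 and 5.67 on Nfib+Mycl1 arrays and 9.13, 9.41, 8.70 and 8.69 on Mycl1 arrays. Actg2 changed by -0.76 in 3583T3 and by -3.18 in 3151T4, and the call was lost without any 1 of the 4 arrays of 3151T4 (adjusted p up to 0.0848, without 3151T4 Nfib+Mycl1 replicate 3). Without 3583T3 Nfib+Mycl1 replicate 2, 4 of the 14 were called lower.

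**Figure D3:**
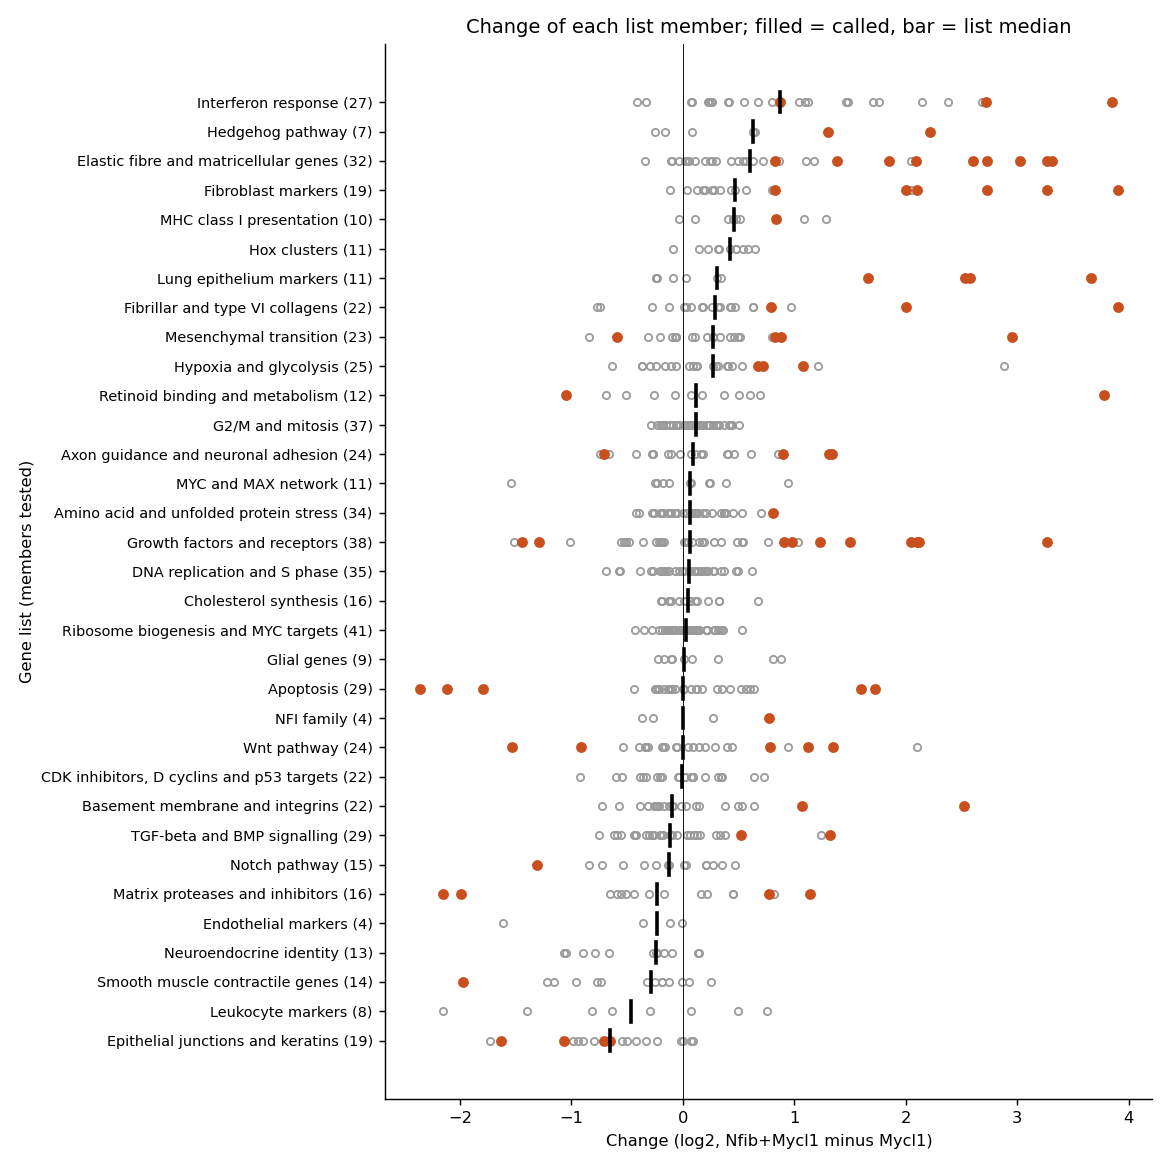
Change of each tested member of the 33 gene lists (log2, Nfib+Mycl1 minus Mycl1, x axis), with the number of members tested beside each list name; filled orange points are called genes and the black bar is the median of the list. Median changes run from -0.651 for epithelial junctions and keratins to 0.871 for the interferon list, and every called member of the elastic fibre and matricellular list lies to the right of 0.

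Of 7 hedgehog pathway genes, 2 co-receptors were higher and 0 genes lower. Gas1 had 10.28, 8.86, 11.08 and 11.20 on Nfib+Mycl1 arrays and 7.08, 7.94, 9.0 and 8.54 on Mycl1 arrays (2.22 ± 0.29), and Boc had 5.04, 4.76, 5.76 and 5.48 on Nfib+Mycl1 arrays and 3.79, 3.59, 4.26 and 4.19 on Mycl1 arrays (1.30 ± 0.19). A further gene, the transcription factor gene Gli2, was called without 3583T3 Nfib+Mycl1 replicate 2 (1.04, adjusted p = 0.0473). The pathway target gene Ptch1 differed by 0.08 and was not called. In the Wnt list 3 of 24 were higher and 2 lower (2 and 2 without 3583T3 Nfib+Mycl1 replicate 2, and 1 higher without 3151T4 Mycl1 replicate 3). Sfrp2, a secreted Wnt antagonist, had 11.92, 12.11, 12.28 and 12.11 on Nfib+Mycl1 arrays and 10.70, 10.65, 10.63 and 11.05 on Mycl1 arrays (1.34 ± 0.12), while Sfrp4 of the same family fell by 1.54, with 5.56, 6.54, 6.37 and 6.33 on Nfib+Mycl1 arrays and 7.27, 6.95, 8.37 and 8.36 on Mycl1 arrays. The other 3 Wnt calls (Dkk3 1.12, Fzd8 0.78 and Fzd3 -0.92) were each lost without at least 3 of the 8 arrays. The adjusted p ran up to 0.0884 for Dkk3 without 3151T4 Nfib+Mycl1 replicate 3. It ran up to 0.101 for Fzd8 without 3583T3 Mycl1 replicate 2 and 0.102 for Fzd3 without 3151T4 Mycl1 replicate 3. Fzd8 was also lost without 3583T3 Nfib+Mycl1 replicate 2 (limma, adjusted p = 0.0587).

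In the TGF-beta and BMP list 2 of 29 were higher and 0 lower, and the median was -0.118. The counts were 1 higher and 3 lower without 3583T3 Nfib+Mycl1 replicate 2. The 3 lower were the activin subunit gene Inhba (-0.85), the inhibitory Smad gene Smad7 (-0.57) and the follistatin-like Fstl3 (-0.86). Bmp4 had 10.12, 10.04, 11.23 and 10.98 on Nfib+Mycl1 arrays and 8.26, 8.01, 10.40 and 10.41 on Mycl1 arrays (1.32 ± 0.23). The receptor gene Tgfbr2 had 12.40, 12.67, 11.86 and 11.70 on Nfib+Mycl1 arrays and 11.98, 11.75, 11.30 and 11.53 on Mycl1 arrays (0.52 ± 0.12), and its call was lost without any of 6 arrays, among them 3583T3 Nfib+Mycl1 replicate 2 (adjusted p = 0.0784). Nrarp, an inhibitor and target of Notch, was the single call among 15 Notch pathway genes, with 8.81, 8.92, 4.59 and 5.24 on Nfib+Mycl1 arrays and 9.91, 9.95, 6.38 and 6.56 on Mycl1 arrays (-1.31, SE 0.19). Of 12 retinoid genes Crabp1 rose, as given above, and Rdh10, which makes retinaldehyde from retinol, fell by 1.05, with 10.90, 10.73, 9.25 and 9.34 on Nfib+Mycl1 arrays and 11.91, 12.08, 10.29 and 10.13 on Mycl1 arrays.

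Of 24 axon guidance and neuronal adhesion genes 3 were higher and 1 lower (2 and 2 without 3583T3 Nfib+Mycl1 replicate 2). The secreted guidance ligand Slit2 had 10.68, 11.06, 7.22 and 7.54 on Nfib+Mycl1 arrays and 9.57, 9.65, 5.81 and 6.13 on Mycl1 arrays, and rose by 1.33 ± 0.16. Its call held whichever array was left out, with changes of 1.25 to 1.43. Its receptor gene Robo1 fell by 0.70 (adjusted p = 0.0437), a call lost without any of 7 arrays (adjusted p up to 0.106, without 3151T4 Nfib+Mycl1 replicate 3). The receptor genes Unc5c (1.31) and Plxna2 (0.90) were each lost without 6 arrays, with adjusted p up to 0.0953 and 0.119 without 3583T3 Mycl1 replicate 2. Without 3583T3 Nfib+Mycl1 replicate 2 the calls of Robo1 and Unc5c were lost (limma, adjusted p = 0.0651 and 0.0511). None of the 13 tested neuroendocrine genes was called with all 8 arrays. Their median was -0.244 and 11 of the 13 changes were negative. Uchl1, a ubiquitin hydrolase of neurons and neuroendocrine cells, had 8.31, 9.95, 10.21 and 10.19 on Nfib+Mycl1 arrays and 10.54, 9.93, 11 and 11.39 on Mycl1 arrays, a difference of -1.05 ± 0.29 (adjusted p = 0.0668). Without 3583T3 Nfib+Mycl1 replicate 2, Uchl1 fell by 1.37 (adjusted p = 0.00711), and the Notch-related factor gene Hes6 by 0.87 (adjusted p = 0.0134, named after its value was seen). Insm1, a neuroendocrine zinc finger factor gene, had 3.92, 3.08, 2.56 and 2.51 on Nfib+Mycl1 arrays and 5.04, 5.51, 2.83 and 2.96 on Mycl1 arrays (-1.07, adjusted p = 0.0829).

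Lung epithelial markers included 4 rises and 0 falls among 11 tested of 24 on the array, and the 4 were called whichever array was left out. Hopx, a homeodomain-only gene of alveolar type I cells, had 4.85, 5.95, 7.55 and 7.70 on Nfib+Mycl1 arrays and 3.58, 2.71, 4.80 and 4.84 on Mycl1 arrays (2.53 ± 0.28, adjusted p = 0.0006). Pdpn (podoplanin), also of alveolar type I cells and of lymphatic vessels, had 10.38, 11.14, 8.15 and 7.70 on Nfib+Mycl1 arrays and 9.22, 9.04, 6.32 and 6.15 on Mycl1 arrays (1.66 ± 0.19). The airway secretory genes were Slpi and Bpifb1, and Bpifb1 had 4.97, 5.06, 8.21 and 7.40 on Nfib+Mycl1 arrays and 3.20, 3.60, 4.15 and 4.40 on Mycl1 arrays (2.58 ± 0.36). The defining genes of club cells and alveolar type II cells stayed near the lowest signals, with Scgb1a1 at 1.57 to 2.07 on Nfib+Mycl1 arrays and 1.75 to 1.85 on Mycl1 arrays, and Sftpc at 3.39 to 4.26 and 3.35 to 3.83.

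With all 8 arrays, 0 of 41 ribosome biogenesis and MYC target genes were called (median 0.027), 0 of 35 replication genes (0.058), 0 of 37 G2/M and mitosis genes (0.115), 0 of 22 CDK inhibitor, D cyclin and p53 target genes (-0.009) and 0 of 16 cholesterol synthesis genes (0.045). Over all genes tested, 2065 had an unadjusted p under 0.05 in this fit. Ldha, the lactate dehydrogenase gene, had the smallest p of the MYC target list (0.53 ± 0.13, adjusted p = 0.0549) and the clamp loader gene Rfc2 that of the replication list (0.62 ± 0.15, adjusted p = 0.0507). Rfc2 was called higher without 3583T3 Nfib+Mycl1 replicate 2 (0.71, adjusted p = 0.0342), as 1 of 35. Mki67, a proliferation marker, had 12.34, 12.43, 12.03 and 11.88 on Nfib+Mycl1 arrays and 12.27, 11.88, 11.51 and 11.57 on Mycl1 arrays (0.37 ± 0.11, adjusted p = 0.0844). Without 3583T3 Mycl1 replicate 1, 5 of the 37 G2/M genes were called higher. None of 11 Hox genes, 9 glial genes, 8 leukocyte markers and 4 endothelial markers was called with all 8 arrays either. The leukocyte list without 3583T3 Nfib+Mycl1 replicate 2 had 1 higher, the tetraspanin gene Cd53 (0.96, adjusted p = 0.0256), and 1 lower, the lysozyme gene Lyz2 (-1.73, adjusted p = 0.0242). By line, Lyz1 and Lyz2 were lower in 3151T4 and Esam in 3583T3 (-3.07, adjusted p = 0.0436).

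Of 29 apoptosis genes 2 were higher and 3 lower (median 0.003). Casp1 had 3.99, 3.35, 6.59 and 6.41 on Nfib+Mycl1 arrays and 2.58, 2.23, 4.49 and 4.14 on Mycl1 arrays (1.72 ± 0.26), and Casp4 rose by 1.60 ± 0.26. Both encode inflammatory caspases. The falls were those of Bik and Pmaip1, given above, and of the TNF receptor family gene Tnfrsf19 (-1.80, adjusted p = 0.0177), which was not called without 3583T3 Mycl1 replicate 2 (-1.72, adjusted p = 0.0642) or 3151T4 Nfib+Mycl1 replicate 3 (-1.80, adjusted p = 0.0573). Of 25 hypoxia and glycolysis genes 3 were higher (6 without 3583T3 Mycl1 replicate 1 and 1 without 3583T3 Mycl1 replicate 2), with Bnip3 (0.67 ± 0.12), a mitophagy receptor gene, called whichever array was left out, and the lactate transporter gene Slc16a3 (1.08) and Ndrg1 (0.72) not called without any of 7 and 6 arrays, among them 3583T3 Nfib+Mycl1 replicate 2 (adjusted p = 0.0664 and 0.0648). Without that array the prolyl hydroxylase gene Egln3 was called (1.51, adjusted p = 0.013). Nfix, the call among the 4 nuclear factor I genes, had 11.43, 11.94, 11.01 and 10.55 on Nfib+Mycl1 arrays and 11.23, 10.62, 9.79 and 10.22 on Mycl1 arrays (0.77 ± 0.18). The Nfix call was lost without any of 5 arrays, among them that one (0.67, adjusted p = 0.0801). Among 34 amino acid and unfolded protein stress genes Cebpb alone was called (0.81 ± 0.18), and not without any of 6 arrays (adjusted p up to 0.118, without 3151T4 Nfib+Mycl1 replicate 3).

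The lines were then compared in their response, as the change in 3583T3 minus the change in 3151T4. This difference passed the test for 127 of 8498 genes (1.49%), of which 101 had the more positive change in 3583T3 and 26 in 3151T4. The signs of the change were opposite in 71 of the 127. In the same fit, 282 genes (3.32%) were higher and 166 (1.95%) lower with Nfib in 3583T3, and 119 (1.4%) higher and 129 (1.52%) lower in 3151T4. Without 3583T3 Nfib+Mycl1 replicate 2, which leaves 1 array in its group, assumed to vary like the others, 257 of 8449 genes (3.04%) differed between lines, and 112 of the 127 were among them. The count was 243 without 3583T3 Nfib+Mycl1 replicate 1 and 83 without 3583T3 Mycl1 replicate 1. Without an array of 3151T4 it was 38 (Nfib+Mycl1 replicate 3), 54 (Nfib+Mycl1 replicate 4), 48 (Mycl1 replicate 3) or 55 (Mycl1 replicate 4).

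Cd34, a surface sialomucin of progenitor, vascular and stromal cells, had 8.62 and 9.21 on 3583T3 Nfib+Mycl1 arrays, against 3.07 and 3.48 on 3583T3 Mycl1 arrays, and 3.90 and 4.03 on 3151T4 Nfib+Mycl1 arrays, against 5.86 and 5.33 on 3151T4 Mycl1 arrays. It rose in 3583T3 (5.64) and fell in 3151T4 (-1.63), a difference of 7.27 (adjusted p = 1.06e-05). Ifi27l2a, an interferon-induced gene, rose by 6.01 in 3583T3 and differed by -0.06 in 3151T4. Sfrp1, a secreted Wnt antagonist, rose by 4.44 in 3583T3 (7.79 and 7.33 on Nfib+Mycl1 arrays, against 3.21 and 3.03 on Mycl1 arrays) and differed by -0.24 in 3151T4.

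Other genes with large differences moved in 3151T4. Car9, the hypoxia-induced carbonic anhydrase IX, had 8.37 and 8.45 on 3151T4 Nfib+Mycl1 arrays and 2.48 and 2.86 on 3151T4 Mycl1 arrays, and 2.81 and 3.26 on 3583T3 Nfib+Mycl1 arrays against 3.06 and 2.97 on 3583T3 Mycl1 arrays. Tnnc2, the fast muscle troponin C gene, rose by 5.35 in 3151T4 and differed by -0.10 in 3583T3. Lyz1 and F13a1 were lower on 3151T4 Nfib+Mycl1 arrays. Lyz1 (lysozyme) had 2.24 and 2.22 on 3151T4 Nfib+Mycl1 arrays and 7.62 and 6.05 on 3151T4 Mycl1 arrays, and F13a1 (coagulation factor XIII A chain) had 5.04 and 4.67 on 3151T4 Nfib+Mycl1 arrays and 9.65 and 9.27 on 3151T4 Mycl1 arrays. The summed leukocyte signal of the same arrays was 277.5 and 286.4 on 3151T4 Nfib+Mycl1 arrays and 529.7 and 388.3 on 3151T4 Mycl1 arrays, and its part in these differences was not tested. The sum includes Lyz1 and so is no separate measure for it. Over both lines the Lyz1 probe set given here differed by -2.15. The other Lyz1 probe sets differed by -2.133 (not called) and by 0.0039 (too dim to be tested). The leukocyte gene Cd74 went the other way, with both 3151T4 Nfib+Mycl1 arrays above both 3151T4 Mycl1 arrays. Whether the fall of Lyz1 and F13a1 reflects macrophages was not tested. Ptprc stayed near the lowest signals, with 1.91 and 1.90 on 3151T4 Nfib+Mycl1 arrays and 2.16 and 2.30 on 3151T4 Mycl1 arrays. In 3583T3 the falls were those of Ugt2b34, a glucuronosyltransferase gene (-5.48, with 0.44 in 3151T4), and Bex4, a relative of Bex1 (-5.27, with 0.79 in 3151T4). All 10 genes with the largest differences, Lhx8 among them, stayed past the threshold whichever 1 array was left out, as far as they passed the filter there. Ifi27l2a was not tested without 3583T3 Nfib+Mycl1 replicate 2.

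**Figure D4:**
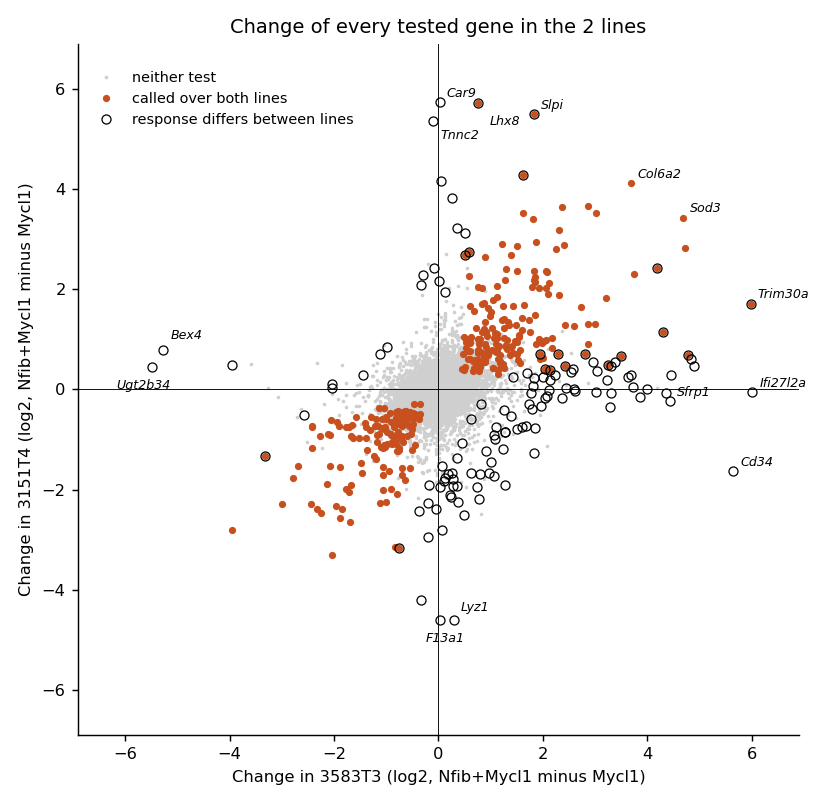
Change of each of the 8498 tested genes in 3583T3 (x axis) and in 3151T4 (y axis), both log2, Nfib+Mycl1 minus Mycl1; orange points are the 318 genes called over both lines and open circles the 127 genes whose response differs between lines. All 318 called genes lie to the upper right or lower left of 0, which the additive fit makes almost certain, and 101 of the 127 open circles have the more positive change in 3583T3.

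Interferon-induced genes encode antiviral and signalling proteins. Of 34 list members on the array 27 were tested, and the others, among them Mx1, Mx2 and Rsad2, were too dim for the filter. Without 3583T3 Nfib+Mycl1 replicate 2, 23 passed it, so some members were tested only through that array. Others, such as Trim30a, were above log2 4 only on Nfib+Mycl1 arrays and passed the filter through that group. Both raise the share called higher in the counts below, and by how much was not tested. Of the 27, 17 were called higher and 0 lower in 3583T3 (3.32% and 1.95% of all genes), and 1 higher (Trim30a) and 1 lower (Ifitm1) in 3151T4. The difference between lines passed for 13, all with the more positive change in 3583T3. Median changes were 1.58 in 3583T3 and 0.195 in 3151T4. Over both lines 3 were called, Trim30a, Ifit1 and Ifitm3, and the count was 7 without 3151T4 Mycl1 replicate 4 and 2 without 3583T3 Mycl1 replicate 2. Ifit1, an antiviral RNA-binding protein gene, had 8.73 and 7.58 on 3583T3 Nfib+Mycl1 arrays and 4.23 and 3.50 on 3583T3 Mycl1 arrays, and 4.23 and 4.79 on 3151T4 Nfib+Mycl1 arrays against 3.45 and 3.28 on 3151T4 Mycl1 arrays (2.72 ± 0.55 over both lines, adjusted p = 0.0219). The call of Ifit1 over both lines was lost without 3583T3 Mycl1 replicate 2 (2.26, adjusted p = 0.0618). Ifitm3, a membrane protein that blocks virus entry, had 12.60, 12.26, 12.17 and 12.25 on Nfib+Mycl1 arrays and 11.05, 11.35, 11.70 and 11.70 on Mycl1 arrays (0.87 ± 0.16).

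Other members rose in 3583T3 and were not called in 3151T4, such as the interferon-induced protease Usp18 (4.83 in 3583T3 and 0.60 in 3151T4), the chaperone Rtp4 (4.89 and 0.47) and the oligoadenylate synthetase Oas1a (4.46 and 0.29). Some members were called in neither line: the interferon-induced Ifit2 differed by -0.13 in 3583T3 and 0.28 in 3151T4, and the transcription factor gene Irf3 by -0.20 and 0.36. Usp18, Rtp4, Oas1a, Ifit2, Irf3 and Ifitm1 were named after their values were seen. Of the 13 line differences, those of Trim30a, Usp18, Rtp4 and Igtp held whichever array was left out. That of Oas1a held in the 6 of 8 cases in which it passed the filter. The other 8 were lost without at least 1 array, with adjusted p up to 0.208 (Ifit3). Without 3583T3 Nfib+Mycl1 replicate 2, 11 of 23 tested members differed between lines. Among 10 genes of MHC class I presentation, which interferon also raises, H2-D1 was called (0.83 ± 0.18, with 11.31, 11.63, 10.88 and 10.98 on Nfib+Mycl1 arrays and 10.43, 10.02, 10.41 and 10.60 on Mycl1 arrays). Its call was lost without any of 5 arrays, among them 3583T3 Nfib+Mycl1 replicate 2 (adjusted p = 0.052).

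**Figure D5:**
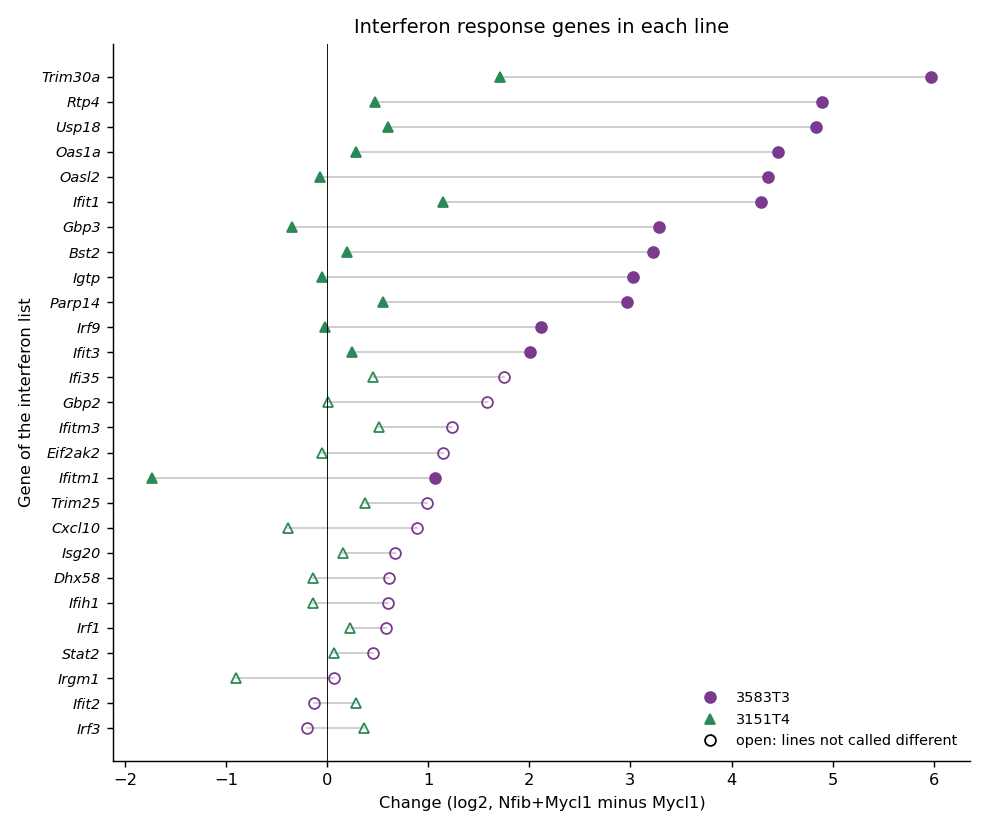
Change of the 27 tested interferon response genes (rows) in 3583T3 (purple circles) and 3151T4 (green triangles), log2, Nfib+Mycl1 minus Mycl1; filled symbols mark the 13 genes whose change differs between lines. In 25 of 27 rows the circle lies to the right of the triangle.

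Promoter sequences were read because Nfib is a DNA-binding factor. RefSeq promoters (mouse build GRCm38.p6, 250 bases before to 50 after a gene's start) were given for 133 of the 182 genes called higher, 98 of the 136 called lower and 6924 of the 8498 tested, and both strands were searched. The single arm TTGGC was in at least 1 promoter of 53.4% of genes called higher and 51.0% of those called lower, against 55.6% of all. These and the shares below are of the genes with a promoter given, and some genes had more than 1. The full palindrome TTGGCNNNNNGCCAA was in 0 of the called genes of either direction and in 2 of 6924 genes. A shorter one, TGGCNNNNNGCCA, which the full palindrome contains, was in 3 genes called higher (2.26%), 1 called lower (1.02%) and 70 of all (1.01%), and the E-box CACGTG of the MYC family in 11.3%, 11.2% and 12.1%. A match is a description of these letters and not of binding. The 4 promoters of called genes with the shorter palindrome are shown with that of Prelp, a large riser whose promoter holds a pair of arms in opposite orientation, and capitals mark the palindromes and arms.
Postn, chr3:54359017-54359316, plus strand: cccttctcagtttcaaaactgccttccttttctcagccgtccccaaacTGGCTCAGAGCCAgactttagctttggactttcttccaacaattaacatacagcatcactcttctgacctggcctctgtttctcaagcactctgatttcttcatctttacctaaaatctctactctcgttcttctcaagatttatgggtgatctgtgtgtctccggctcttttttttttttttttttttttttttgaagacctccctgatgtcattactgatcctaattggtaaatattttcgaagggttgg
Il1r1, chr1:40266336-40266635, plus strand: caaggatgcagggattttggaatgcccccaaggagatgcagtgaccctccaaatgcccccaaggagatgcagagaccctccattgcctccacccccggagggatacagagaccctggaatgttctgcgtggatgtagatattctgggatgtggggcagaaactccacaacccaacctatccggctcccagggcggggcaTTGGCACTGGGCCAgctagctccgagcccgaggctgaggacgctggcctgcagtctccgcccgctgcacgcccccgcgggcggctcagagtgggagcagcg
Mov10, chr3:104818256-104818555, minus strand: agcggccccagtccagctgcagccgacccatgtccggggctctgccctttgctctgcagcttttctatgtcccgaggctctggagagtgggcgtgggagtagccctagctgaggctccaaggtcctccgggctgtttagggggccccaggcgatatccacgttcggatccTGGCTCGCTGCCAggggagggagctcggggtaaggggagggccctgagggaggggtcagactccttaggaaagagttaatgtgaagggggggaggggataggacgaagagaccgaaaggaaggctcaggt
Igfbp5, chr1:72874816-72875115, minus strand: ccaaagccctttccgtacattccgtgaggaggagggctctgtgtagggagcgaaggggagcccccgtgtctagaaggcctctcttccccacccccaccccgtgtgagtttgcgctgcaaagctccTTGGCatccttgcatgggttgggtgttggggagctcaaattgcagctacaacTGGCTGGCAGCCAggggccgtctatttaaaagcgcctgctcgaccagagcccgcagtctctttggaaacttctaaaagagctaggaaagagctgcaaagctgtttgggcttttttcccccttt
Prelp, chr1:133921352-133921651, minus strand: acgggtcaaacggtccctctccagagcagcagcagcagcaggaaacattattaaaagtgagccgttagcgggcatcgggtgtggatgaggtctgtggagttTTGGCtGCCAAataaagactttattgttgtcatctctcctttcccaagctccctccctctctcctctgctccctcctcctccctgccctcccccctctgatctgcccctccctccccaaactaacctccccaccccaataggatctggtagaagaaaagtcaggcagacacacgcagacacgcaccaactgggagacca

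Il1r1 and Mov10 are not described above and were named for their promoters. Genes given above as called only without 3583T3 Nfib+Mycl1 replicate 2 were, other than Rfc2, Uchl1 and Lyz2, also named after their values were seen. The interleukin 1 receptor gene Il1r1 averaged 10.84 ± 0.73 on Nfib+Mycl1 arrays and 10.01 ± 0.86 on Mycl1 arrays (SD, n = 4 each) and rose by 0.84 ± 0.13 (SE, limma, adjusted p = 0.00396). Mov10, an RNA helicase gene raised by interferon, averaged 6.72 ± 0.30 on Nfib+Mycl1 arrays and 5.80 ± 0.46 on Mycl1 arrays (SD, n = 4 each), with no overlap, and rose by 0.92 ± 0.18 (SE, adjusted p = 0.0182). By line the changes were 0.95 in 3583T3 and 0.73 in 3151T4 for Il1r1, and 1.10 and 0.74 for Mov10. The shared direction is no separate evidence, since the fit makes it almost certain for a called gene.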

How the data were processed

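Gene expression was measured on Affymetrix mouse arrays, with 100 ng of RNA per labelling in the protocol. The authors deposited 1 log2 signal per probe set and array (22690 probe sets, 16 arrays), for which the submitters' processing notes name R 2.11.0 and GCRMA 2.20.0; the log2 scale was taken from the range of the values. Other processing steps are not given in the sources used here. Arrays give no read depth, so their number limits the precision (median SE 0.176 log2 units).

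Groups were taken from the labels. Genes were named from the platform annotation: 20380 probe sets had 1 symbol, 691 several (not used) and 1555 none, and 20351 matched the RefSeq table. Where a gene had several probe sets, that of greatest average signal across the 8 arrays stood for it. Of 12393 genes, those above log2 4 on at least 2 arrays were tested (8498 genes). Of 90 other probe sets of the named genes, 84 had the same sign and 0 were called in the opposite direction. The change is Nfib+Mycl1 minus Mycl1 from limma 3.58.1 (lmFit, eBayes with trend, R 4.3.3) with cell line as covariate and 5 residual degrees of freedom. Line-specific changes and their difference came from a fit of 4 group means with 4. Benjamini-Hochberg adjusted p under 0.05 over all genes was a call. The code was tested on simulated data.

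The arrays and the 33 gene lists (named with their counts in the report) were chosen with earlier results of these data known, so no list is independent evidence. Genes named were the probe sets of Nfib, Mycl, Mycn and Myc, the 12 largest rises and 12 largest falls, up to 4 called members with the smallest p per list and direction, the 5 largest line differences each way, and up to 2 members of lists without calls; predicted or unnamed clone symbols were skipped. The reported fit has no term for the replicate number, and the labels do not say whether it pairs arrays. The correlation of deviations was -0.125 in 3583T3, which includes the array that goes against its label, and 0.098 in 3151T4. Alternatives covered the filter, probe set choice, normalization, variance model, samples fitted, replicate block and leaving out each array.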

Additional observations from a re-analysis of the deposited data

Results flagged for a closer look

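For 20 of the named genes the response to Nfib passed a test of the difference between lines (change in 3583T3 minus change in 3151T4, limma). The more positive change was in 3583T3 for Cd34 (7.27), Ifi27l2a (6.07), Lyz1 (4.90), Sfrp1 (4.67), F13a1 (4.64), Trim30a (4.27), Ifit1 (3.15), Actg2 (2.42), the lysozyme gene Lyz2 (2.06), Prelp (1.75) and Bmp4 (1.25). In 3151T4 it was the more positive for Bex4 (-6.06), Ugt2b34 (-5.92), Car9 (-5.71), Tnnc2 (-5.45), Lhx8 (-4.95), Slpi (-3.67), Prrx1 (-2.66), the glutamate transporter gene Slc1a3 (-2.43) and Cytip (-2.0). The differences of Prelp, Cytip and Bmp4 were each lost without any of 6 arrays (adjusted p up to 0.262, 0.189 and 0.273), that of Lyz2 without any of 5 (0.211), those of Actg2 and Ifit1 without any of 2 (0.108 and 0.125) and that of Slc1a3 without 3151T4 Nfib+Mycl1 replicate 4 (0.0577).

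Arrays outside the comparison also carried a signal. The array labelled 3583T3 Nfib replicate 2 had 10.22 on the brightest Mycl probe set, against a mean of 2.34 in untransfected cells, which goes against its label. The brightest Mycn probe set reached 12.72 on arrays labelled Nfib alone, against a mean of 2.38 in untransfected cells. The dimmer Mycn probe sets reached 4.93 and 3.12 on those arrays, against means of 4.32 and 3.10 in untransfected cells.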

How the results depend on the processing

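The array number, 2 per group, limits what can be called, and the count of calls depended on single arrays: without each array in turn it ran from 162 to 487, and that of line differences from 38 to 257. Of 105 genes named by the rule, 74 were called, 51 of them whichever array was left out. Against 318 calls in the reported fit, array weights gave 619 (49.9% higher, against 57.2%) and the average of the lines from 4 group means 691. A fit of all 16 arrays gave 331, 47.1% higher. With replicates averaged 38 genes were called. The replicate block gave 131 calls. Whether the replicate numbers pair the arrays is not settled. That 7 of 8 arrays were closest to the replicate of their own group cannot show it, since a larger vector difference gives the same. The exception was closest to the Mycl1 array of its own replicate number. Crossed numbers in 3583T3, tried after seeing the data, gave 187. The causes were not tested. All other settings over both lines stayed within 1.5 times of the reported count.

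On the brightest Mycl probe set the change turned over both lines, at -1.54 with all 8 arrays and 0.54 without 3583T3 Nfib+Mycl1 replicate 2, and so did dim probe sets of Mycl (0.03 and -0.06) and Mycn (0.14 and -0.06), none of them called. Other named genes turned sign when 1 line was fitted. In 3151T4 alone the change was -1.63 for Cd34, -0.057 for Ifi27l2a, -0.235 for Sfrp1, 0.438 for Ugt2b34, 0.789 for Bex4 and -0.004 for Hoxb9. In 3583T3 alone it was 0.293 for Lyz1, 0.033 for F13a1, -0.098 for Tnnc2 and -0.335 for Slc1a3. None of these 10 genes was called over both lines.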
